A study of Drosophila melanogaster with 13 samples.

Results

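The regions described here are 591 promoters outside the X chromosome at which MSL3 was called in adult males with wild-type MLE and again in males whose MLE lacks its CLAMP-binding domain (CBD). They were chosen from the MSL3 peak list of MLEwt males as the peaks on chromosomes 2, 3 and 4 that overlapped an MSL3 peak of MLEΔCBD males by at least 1 bp and lay within 200 bp of an annotated transcription start, transposable elements left out. That list held 2915 peaks, of which 1879 were autosomal and 922 were autosomal promoter peaks, so 331 autosomal promoter peaks had no MLEΔCBD counterpart and are called lost below. A further 449 autosomal peaks overlapped a MLEΔCBD peak but lay away from a start. Because the overlap with the MSL3 list of MLEΔCBD males chose the regions, their MSL3 values in both lines are given as a description. The choice did not use the sequence of the promoters, the identity of the genes at them or the MSL1 and MSL2 lists. The MSL1 and MSL3 lists of MLEΔCBD males come from the same line, so MSL1 overlap there is not independent of the choice.

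The data are ChIP-seq peak lists of MSL1, MSL2 and MSL3 from whole males 2 to 3 days old. Each protein was profiled in 2 libraries of each line, and 1 library from MLEwt males was made with preimmune serum. Both lines were y1 w1118 and homozygous for mle9, a loss-of-function allele, and carried a FLAG-tagged MLE transgene driven by the Ubi-p63E promoter at the same landing site on chromosome 3. The MLEwt transgene was kept over the TM6 balancer and the MLEΔCBD transgene was homozygous, so transgene copy number and the balancer go with the line and cannot be told apart from the CBD deletion. The paper reports from immunoblots that these genotypes had similar levels of transgenic MLE and no significant difference in MSL1 and MSL2. The authors deposited 1 list per protein and line, 6 in all, and none for the preimmune library. No comparison between lines was therefore tested, and shares are given with 95% Wilson intervals and medians with 95% order-statistic intervals, both of which speak only of the number of peaks counted. The lists hold no read counts, so the depth of the libraries is unknown. Since whole animals were used, a peak present in few cells and a weak peak in all cells cannot be told apart.

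MSL1, MSL2, MSL3, MOF and MLE, with the roX RNAs, form the dosage compensation complex of male flies, which binds the X chromosome and acetylates histone H4 to raise transcription there. MSL2 and CLAMP recognise GA-rich high-affinity sites, MSL1 is the scaffold that MSL2, MSL3 and MOF dock to, and MSL3 carries a chromodomain that helps the complex to spread into transcribed genes marked by methylated histone H3. Promoters of widely expressed fly genes often carry Motif 1, the site of the zinc finger protein M1BP, the DRE, the site of DREF, or the short site of the insulator protein BEAF-32. Promoters of developmentally regulated and heat shock genes often carry GAGA elements, bound by GAGA factor and, as longer GA repeats, by CLAMP. The genes of tRNAs are transcribed by RNA polymerase III from internal control elements, the A and B boxes.

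The promoters are shown first by sequence, since the groups below differ in it. The first set shows, for 2L, 3L and 3R, the strongest region by MLEwt fold enrichment that carried both the Motif 1 core GGTCACAC (in capitals, on either strand) and an MSL1 peak in MLEΔCBD males. The choice was limited to protein-coding starts within 200 bp of the MSL3 summit and to the 100 bases before a start that touched no annotated exon. Coordinates are in dm6, and each run reads 5′ to 3′ on the strand of the gene and ends 1 base before its start. The positions are chr2L:1884522-1884621 on the plus strand for Wdr62, chr3L:3070840-3070939 on the minus strand for CG32486 and chr3R:18983925-18984024 on the plus strand for gukh.
Wdr62: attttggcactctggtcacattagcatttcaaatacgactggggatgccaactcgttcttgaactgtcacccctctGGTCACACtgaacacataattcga
CG32486: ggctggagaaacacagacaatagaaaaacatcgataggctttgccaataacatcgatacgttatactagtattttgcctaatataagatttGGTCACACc
gukh: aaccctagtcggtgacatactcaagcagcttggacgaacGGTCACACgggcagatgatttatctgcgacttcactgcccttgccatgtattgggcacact

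The next set shows in the same way the strongest regions with a DRE, TATCGATA, in capitals. They are the promoters of Top2, DNA topoisomerase II (chr2L:19453491-19453590, minus strand), Abl, a tyrosine kinase (chr3L:16647883-16647982, minus strand), and Lnk, an adaptor of insulin signalling (chr3R:25888442-25888541, plus strand).
Top2: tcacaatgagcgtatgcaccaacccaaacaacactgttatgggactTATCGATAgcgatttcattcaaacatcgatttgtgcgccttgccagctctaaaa
Abl: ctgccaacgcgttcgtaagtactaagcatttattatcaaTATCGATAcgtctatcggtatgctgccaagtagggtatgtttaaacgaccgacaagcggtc
Lnk: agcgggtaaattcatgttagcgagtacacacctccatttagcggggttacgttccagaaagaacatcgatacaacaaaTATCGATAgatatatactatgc

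In contrast to these, the promoters below belong to the regions that fell furthest in MSL3 rank between the lists among those with a GAGA element, GAGAG, in the same stretch of 100 bases. GAGAG is in capitals. The genes are Tollo, a Toll-family receptor (chr3L:15235519-15235618, plus strand), wit, a type II BMP receptor (chr3L:4071718-4071817, minus strand), and svp, a nuclear receptor (chr3R:12281010-12281109, plus strand).
Tollo: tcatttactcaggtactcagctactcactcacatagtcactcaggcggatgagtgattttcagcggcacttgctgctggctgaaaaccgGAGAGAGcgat
wit: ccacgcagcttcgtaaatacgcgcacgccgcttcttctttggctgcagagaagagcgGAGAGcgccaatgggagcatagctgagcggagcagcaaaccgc
svp: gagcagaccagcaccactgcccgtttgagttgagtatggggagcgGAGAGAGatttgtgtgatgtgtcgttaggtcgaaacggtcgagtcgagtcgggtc

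The last set holds whole tRNA genes at kept regions, to show the internal promoter, with the core of the B box, GGTTCGA, in capitals. They lie on 3R at 22397572-22397653 (plus strand), 30248616-30248695 (minus strand) and 7130947-7131018 (minus strand). The sequence of the serine tRNA gene occurs in 5 identical copies among the annotated tRNA genes of the X chromosome and the autosomes, that of the leucine tRNA gene in 2 and that of the glycine tRNA gene in 4.
tRNA:Ser-GCT-2-5: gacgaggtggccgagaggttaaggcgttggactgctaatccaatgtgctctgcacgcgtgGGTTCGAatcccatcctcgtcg
tRNA:Leu-TAG-1-2: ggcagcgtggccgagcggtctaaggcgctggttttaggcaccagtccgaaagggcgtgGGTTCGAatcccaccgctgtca
tRNA:Gly-TCC-1-2: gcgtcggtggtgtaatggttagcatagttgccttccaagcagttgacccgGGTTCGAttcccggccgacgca
The Motif 1, Abl, Lnk and tRNA examples were chosen after their values were seen.

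Promoter peaks made up the larger part of what was kept outside the X chromosome. The 591 kept regions were 64.1% of the 922 autosomal promoter peaks (61.0 to 67.1%), while 449 of 957 autosomal peaks away from a start were kept (46.9%, 43.8 to 50.1%), against 55.3% of all 1879 autosomal peaks. These shares are fixed by the choice of the regions. They followed the strength of the peak in MLEwt males: 380 of 432 promoter peaks were kept in the strongest group of autosomal peaks (fold enrichment above 3.15), 160 of 287 in the middle group and 51 of 203 in the weakest group (2.41 or less). The groups hold 627, 625 and 627 of the 1879 peaks.

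The kept regions were spread over all large arms. Arm 2L held 111 of them, 2R held 143, 3L held 132 and 3R held 204. Chromosome 4 held 1, the promoter of PMCA, a plasma membrane calcium pump. Kept shares of promoter peaks were alike on the arms, from 61.1% (54.7 to 67.1%) on 2R to 67.8% (62.3 to 72.8%) on 3R. The density was 5.36 regions per Mb over these chromosomes, and 136 regions lay within 10 kb of another. Their nearest start belonged to a protein-coding gene at 516 regions, a tRNA gene at 38, another non-coding RNA gene at 28, a snoRNA gene at 6 and a snRNA gene at 3. Counting every start within 200 bp, they reached 820 genes.

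The regions were narrow peaks just upstream of the start. Their median width in MLEwt males was 617 bp (581 to 670, range 230 to 11419), and the start lay inside the peak at 553 of 591. The MSL3 summit lay at a median of -45 bp from the nearest start (-51 to -39, negative is upstream) and was upstream at 403 of 591 (68.2%, 64.3 to 71.8%). At the 331 lost promoter peaks the summit lay a median of 30 bp downstream (23 to 37 bp) and was upstream at 125 (37.8%, 32.7 to 43.1%). The intervals of the kept and lost peaks did not overlap. In the annotation, 276 summits of the kept regions (46.7%, 42.7 to 50.7%) fell between genes, 178 in non-coding parts of exons, 50 in coding exons and 87 in introns, against 51 of 331 lost summits between genes (15.4%, 11.9 to 19.7%). Kept regions more often held starts on both strands, 163 of 591 (27.6%, 24.1 to 31.3%) against 34 of 331 (10.3%, 7.44 to 14.0%). Kept peaks were also wider than lost peaks (median 479 bp, 443 to 521), and a wider peak reaches more starts, so the part of width in this count was not tested.

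**Figure D1:**
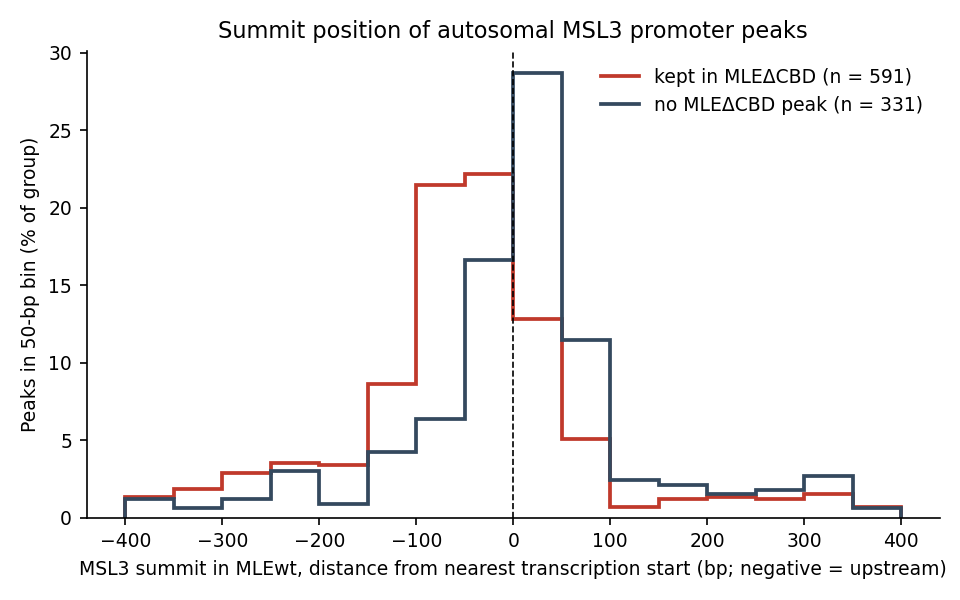
Position of the MSL3 summit in MLEwt males relative to the nearest transcription start, in bins of 50 bp, as a percentage of the 591 kept (red) and 331 lost (dark) autosomal promoter peaks; 60 kept and 48 lost summits lie outside the range shown. The kept summits are highest in the 100 bp before the start, where 21.5% and 22.2% fall in the pair of bins, and the lost summits are highest in the 50 bp from the start on (28.7%).

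The MSL3 values of the regions stayed within a like range while their order changed. The fold enrichment over background, a ratio computed by the peak caller against a control that is not given in the sources used here, had a median of 3.68 (3.50 to 3.91, range 2.02 to 20.0) in MLEwt males and 3.69 (3.41 to 3.86, range 1.78 to 38.9) in MLEΔCBD males. For comparison, the 326 promoter peaks of the X chromosome kept by the same rule had a median of 11.6 and a median width of 4907.5 bp in MLEwt males. Each list was scaled to its own background, so these ratios do not compare amounts of MSL3 between lines. Within each list, the regions held 4 of the first 100 ranks by fold enrichment in MLEwt males and 40 of the first 100 in MLEΔCBD males, where the list is shorter (2301 peaks) and ranks are set relative to X-chromosomal peaks too. Summits of both lines lay within 100 bp of each other at 530 of 591 regions (89.7%, 87.0 to 91.9%). The peaks were narrower in MLEΔCBD males at 405 of 591, with a median width ratio of 0.894 (0.869 to 0.915).

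The strongest regions show this in single peaks. CG10602 on 2L (18859076-18859618), whose peak also holds the start of mRpL13, a mitochondrial ribosomal protein, had the highest fold enrichment of all, 20.0 at rank 65 in MLEwt males and 38.9 at rank 4 in MLEΔCBD males. Its −log10 p in the pair of peak sets that the authors compared was 920 and 932 in MLEwt and 2431 and 2307 in MLEΔCBD males. Its MSL3 peak was therefore high in both sets of both lines.

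Top2 had 18.7 (rank 81) and 22.6 (rank 18), and lace, a subunit of serine palmitoyltransferase, had 11.05 (rank 232) and 20.8 (rank 27). On 2R, nemy had 16.1 and 24.9, Uba1, the ubiquitin-activating enzyme, had 11.9 and 15.9, and psq, a BTB protein that binds GA-rich DNA, had 10.96 and 7.69. All but psq in these groups of 3 had a higher fold enrichment in the MLEΔCBD list.

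On 3L, l(3)73Ah had 19.7 and 21.5, MCU, the mitochondrial calcium uniporter, had 17.5 and 33.8, and upSET, a chromatin protein, had 14.4 and 6.97. On 3R, T48 had 14.9 and 25.9, CG6073 had 13.6 and 28.1, and Sar1, a GTPase of vesicle coats, had 13.2 and 36.8. PMCA on chromosome 4 had 3.10 and 2.74. Of the 13 regions named here by arm, those of psq, upSET and PMCA had a lower fold enrichment in MLEΔCBD males.

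The pair of peak sets gave like values at the kept regions, with a median log2 ratio of their −log10 p of -0.02 (range -0.86 to 0.84) in MLEwt and 0.01 (range -0.91 to 1.1) in MLEΔCBD males. Every peak had passed the authors' filter for agreement between compared sets, so like values were built into the lists. Whether these sets are the replicates or pseudoreplicates is not given in the sources used here.

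**Figure D2:**
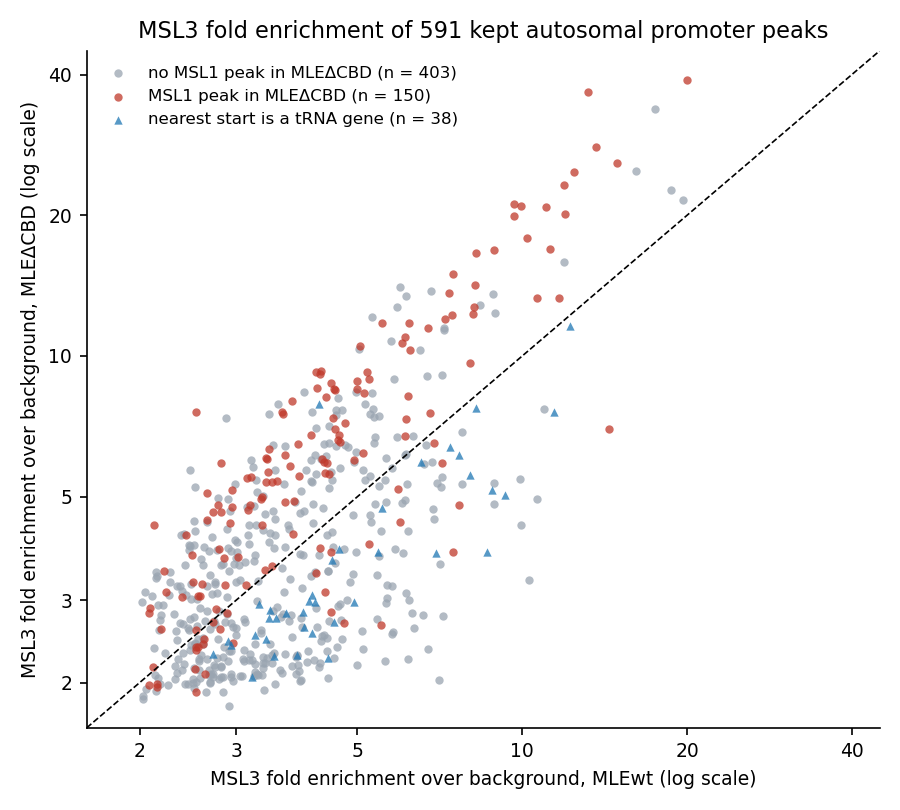
MSL3 fold enrichment over background of the 591 kept regions in MLEwt (x axis) and MLEΔCBD males (y axis), both on log scales; red points overlap an MSL1 peak in MLEΔCBD males (150), grey points do not (403), blue triangles are the 38 regions nearest a tRNA gene, 7 of which also overlap MSL1, and the dashed line marks equal values. Most red points lie above the line and all but 1 of the triangles lie below it.

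The regions that moved furthest in rank are named next. Ranks were compared over the full lists, of 2915 and 2301 peaks, and 434 of the 591 regions had a better rank in the shorter MLEΔCBD list (73.4%, 69.7 to 76.8%). The share was alike at the kept autosomal peaks away from starts, 330 of 449 (73.5%, 69.2 to 77.4%). eIF4A, the helicase of translation initiation, rose furthest, from rank 2721 (fold enrichment 2.13, −log10 p 14.4 and 18.7 in the pair of sets) to rank 590 (4.35, 86.9 and 87.6). The next were VhaPPA1-1, a vacuolar ATPase subunit (2851 to 955), CSN6, a subunit of the COP9 signalosome (2702 to 816), CG4612 (2881 to 1027) and Rcc1, the exchange factor of Ran (2693 to 862). A separate kept peak at another start of eIF4A went the other way, from rank 1468 (3.09) to rank 1714 (2.24). No role is given here for CG4612.

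Tollo fell furthest, from rank 460 (7.04, −log10 p 230 and 214) to rank 2135 (2.03, 13.3 and 22.2). After it came svp (908 to 2095), wit (546 to 1713), Mef2, the muscle transcription factor (644 to 1752), and CG32264 (1049 to 2148). These ranks were used in naming the genes and are a description.

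Among the 1040 kept autosomal peaks alone, where X-chromosomal peaks play no part in the order, 316 of the 591 regions had a better rank in MLEΔCBD males (53.5%, 49.4 to 57.5%), close to the kept peaks away from starts (247 of 449, 55.0%, 50.4 to 59.6%). The kinds of start differed. Of regions nearest a protein-coding gene 304 of 516 had a better rank (58.9%, 54.6 to 63.1%), and of those nearest a tRNA gene 1 of 38 (2.63%, 0.466 to 13.5%), that of tRNA:Val-CAC-1-1.

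MSL1, the scaffold of the complex, marked the kept regions in MLEΔCBD males and hardly in MLEwt males. In MLEΔCBD males 157 of 591 overlapped an MSL1 peak (26.6%, 23.2 to 30.3%), against 10.9% of all autosomal MSL3 peaks, 7 of 331 lost promoter peaks (2.11%, 1.03 to 4.30%) and 40 of 449 kept peaks away from starts. In MLEwt males it was 18 of 591 (3.05%, 1.94 to 4.76%), against 2.13% of all autosomal MSL3 peaks and 1 of 331 lost promoter peaks. Of these 18, 17 had MSL1 in both lines. Kept peaks away from starts had MSL1 in MLEwt males at 21 of 449 (4.68%, 3.08 to 7.04%), no less often than the kept regions. The MSL1 list itself was longer in MLEΔCBD males outside the X chromosome, 377 peaks against 42, and kept regions took a like part of both, 156 of 377 (41.4%, 36.5 to 46.4%) and 18 of 42 (42.9%, 29.1 to 57.8%).

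The difference between kept and lost promoters held at each strength of the MSL3 peak. With MSL1 in MLEΔCBD males were 110 of 380 kept and 2 of 52 lost promoter peaks in the strongest group (28.9%, 24.6 to 33.7%, and 3.85%, 1.06 to 13.0%), 36 of 160 and 2 of 127 in the middle group (22.5% and 1.57%), and 11 of 51 and 3 of 152 in the weakest group (21.6% and 1.97%). Kept peaks away from starts had MSL1 at 36 of 187 in the strongest group, 3 of 170 in the middle and 1 of 92 in the weakest. The MSL1 and MSL3 lists of MLEΔCBD males come from the same line, so the difference between kept and lost peaks is not independent of how they were chosen.

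**Figure D3:**
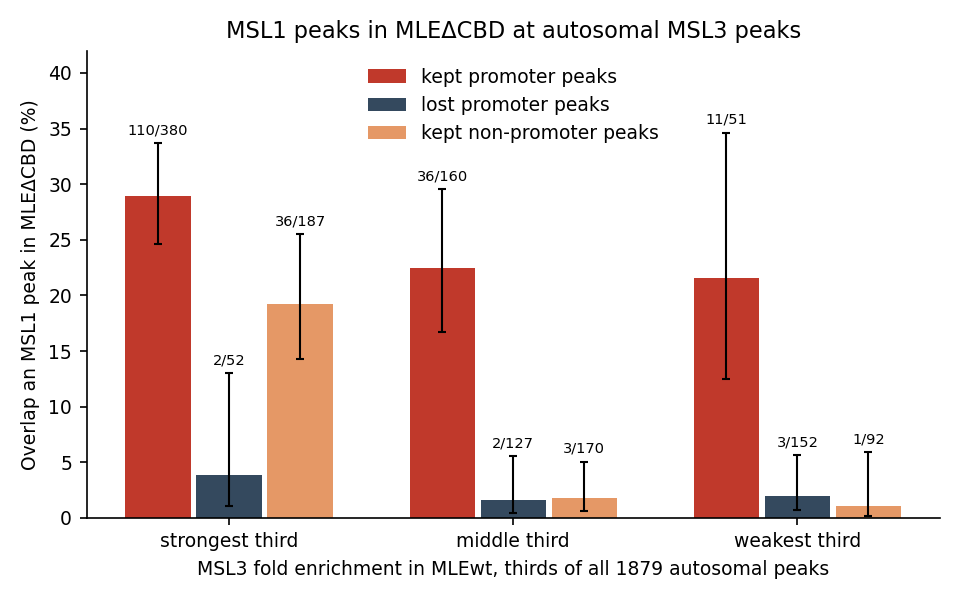
Percentage of autosomal MSL3 peaks that overlap an MSL1 peak of MLEΔCBD males, by strength of the MSL3 peak in MLEwt males and by kind of peak, with 95% Wilson intervals and the counts above the bars. Kept promoter peaks lie between 21.6 and 28.9% in all 3 strength groups, lost promoter peaks between 1.57 and 3.85%, and kept peaks away from starts fall from 19.3 to 1.09%.

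Where both proteins were called in MLEΔCBD males, they were called at the same place: the MSL1 and MSL3 summits lay a median of 24 bp apart (interquartile range 10 to 49 bp) at the 157 regions. The MSL1 peaks there were narrow, with a median width of 402 bp, and of modest strength, with a median fold enrichment of 3.12 (range 2.20 to 36.5) and a median rank of 321 of 577. MSL3 values differed with MSL1: the regions with MSL1 had a median MSL3 fold enrichment of 4.28 (3.68 to 4.53) in MLEwt and 5.90 (5.08 to 6.39) in MLEΔCBD males, and those without had 3.53 (3.36 to 3.76) and 3.20 (2.97 to 3.41). Their summits lay at a median of -66 bp (-75 to -56) and -36 bp (-43 to -28) from the start. In rank among the 1040 kept autosomal peaks, 120 of 157 regions with MSL1 did better in MLEΔCBD males (76.4%, 69.2 to 82.4%) and 196 of 434 without (45.2%, 40.5 to 49.9%). MSL2 overlapped no region in either line (0 of 591 in each, which allows a share of up to 0.508%), from lists of 222 peaks in MLEwt and 92 in MLEΔCBD males with 4 and 23 autosomal peaks. None of all 1879 autosomal MSL3 peaks overlapped MSL2 in either line.

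The regions with MSL1 in both lines include the strongest. At CG10602 MSL1 had a fold enrichment of 5.99 (rank 46 of 293) in MLEwt and 36.5 (rank 4 of 577) in MLEΔCBD males, and at T48 5.32 (rank 57) and 25.6 (rank 10). Sfxn2, a mitochondrial carrier, had 3.81 and 16.9, the antisense RNA gene asRNA:CR45924 4.03 and 15.7, CG14990 6.09 and 14.5, and CG8861 4.01 and 14.5.

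TfIIS, a transcription elongation factor, had MSL1 values of 2.95 and 14.4, Eglp4 3.61 and 12.5, tRNA:Thr-AGT-1-4 2.98 and 9.97, and InR, the insulin receptor, 2.35 and 9.63. The antisense gene is known by its start only, since ChIP carries no strand. The 10 regions named are those with the highest MSL1 fold enrichment in MLEΔCBD males, so a high value there was built into the choice. Over all 17 regions with MSL1 in both lines, the MSL1 fold enrichment was higher in MLEΔCBD males at 17. This count was not made for other MSL1 peaks called in both lines, and each list was scaled to its own background. It is therefore not shown to be particular to these regions.

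The promoters of the kept regions differed from those of the lost peaks in sequence. Motifs were counted on both strands in 300 bases, from 250 before the start to 50 from it on, at protein-coding starts only (516 kept, 265 lost), beside the first start of all 11749 autosomal protein-coding genes. The Motif 1 core GGTCACAC was in 15.3% of kept (12.5 to 18.7%), 6.79% of lost (4.34 to 10.5%) and 7.53% of all promoters. The DRE was in 12.6% of kept (10.0 to 15.7%), 6.04% of lost (3.75 to 9.58%) and 8.56% of all promoters. CGATA, the core of the BEAF-32 site and part of the DRE, was in 54.5%, 36.2% and 46.2%, and CANCNCTA, known as Ohler motif 7, in 25.4%, 13.2% and 15.3%. These motifs of widely expressed genes were each more frequent in kept than in lost promoters, with intervals that did not overlap. In the 100 bases either side of the MSL3 summit, read for kept and lost peaks after the data were examined, the DRE was in 7.56% of kept (5.58 to 10.2%) and 0.377% of lost peaks (0.0666 to 2.11%), and GGTCACAC in 8.33% (6.25 to 11.04%) and 1.51% (0.589 to 3.82%). Each share was lower in this window than in the 300 bases. Kept summits lay mostly upstream and lost summits mostly downstream of the start, so the windows cover different parts of the promoter. The DRE of kept promoters lay at a median of -57.5 bp from the start, and the part of window position in these differences was not tested.

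The other core elements and repeats went separate ways. TATAAA, the TATA box, was in 38.2% of kept, 24.9% of lost and 46.8% of all promoters, counted anywhere in the 300 bases. CAGCTG, the E-box of Ohler motif 5, was in 18.02%, 22.3% and 17.97%, and GTATNTTT, of Ohler motif 6, in 18.6%, 13.2% and 14.7%. For these last pairs the intervals of kept and lost promoters overlapped.

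GA-rich sequence marked the lost promoters instead. GAGAG was in 33.9% of kept (30.0 to 38.1%), 63.4% of lost (57.4 to 69.0%) and 30.1% of all promoters, and GAGAGAGA, the core of the CLAMP site, which contains GAGAG, in 3.49% (2.22 to 5.45%), 14.7% (10.96 to 19.5%) and 3.08%. Read the other way, of promoter peaks with GAGAG 175 of 343 were kept (51.0%, 45.7 to 56.3%), and of those without 341 of 438 (77.9%, 73.7 to 81.5%). TGTGTGTG was in 4.65%, 7.17% and 3.80%. Kept promoters had a median GC content of 39.5% (39.0 to 40.0%), lost promoters 46.7% and all promoters 37.7%.

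The strength of the peak and the base composition move with these motifs, so the shares were also read within them. Of promoter peaks with and without GAGAG, 78.7% and 95.9% were kept in the strongest group, 46.6% and 71.8% in the middle group and 11.6% and 40.0% in the weakest. At or below the median GC content of 41.7%, 71.7% of those with GAGAG (62.5 to 79.4%) and 83.3% of those without (78.6 to 87.2%) were kept, and above it 41.8% (35.7 to 48.1%) and 66.7% (58.6 to 73.8%). The difference was thus of one sign in all these groups, though the intervals overlapped at low GC content. For Motif 1 the kept shares at or below the median GC content were 83.1% with it and 79.6% without, with overlapping intervals, and above it 76.9% (57.9 to 89.0%) and 49.3% (44.1 to 54.5%). With and without Motif 1, 98.0% and 87.9% were kept in the strongest group, 81.5% and 57.3% in the middle and 40.0% and 23.8% in the weakest. The intervals overlapped in each of these strength groups.

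Within the kept regions, Motif 1 went with MSL1. In MLEΔCBD males MSL1 was called at 45 of 79 kept protein-coding promoters with GGTCACAC (57.0%, 46.0 to 67.3%) and at 103 of 437 without it (23.6%, 19.8 to 27.8%). The counts were 29 of 49 and 72 of 275 in the strongest group, 13 of 22 and 23 of 126 in the middle group, and 3 of 8 and 8 of 36 in the weakest, where the intervals overlapped. In MLEwt males MSL1 was at 1 of 79 promoters with the motif and 12 of 437 without. The motif was in 30.4% of kept promoters with MSL1 in MLEΔCBD males (23.6 to 38.2%) and 9.24% of those without (6.69 to 12.6%), near the 6.79% of lost promoters. DRE shares were 12.2% and 12.8% and CGATA shares 54.1% and 54.6%, so neither separated regions with and without MSL1. GAGAG was in 20.9% with MSL1 and 39.1% without, and GAGAGAGA in 1 of 148 and 17 of 368. GC content was alike, 39.7% and 39.3%.

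The examples printed above carry these values. MSL3 fold enrichment at the Motif 1 promoters was 3.13 in MLEwt and 5.48 in MLEΔCBD males for Wdr62, 7.48 and 3.80 for CG32486, and 4.51 and 7.36 for gukh, whose peak also held a start of snRNP-U1-C. MSL1 was called there in MLEΔCBD males at 4.94, 3.54 and 4.64. Of the DRE promoters, Abl had MSL3 values of 8.88 and 16.9 with MSL1 at 3.92, Lnk 8.13 and 12.3 with MSL1 at 2.51, and Top2 had no MSL1 peak in either line. The Motif 1 match did not mark the summit: over 79 promoters the nearest match lay a median of 89.5 bp from the MSL3 summit and at a median of -1.5 bp from the start, and 16 matches lay within 50 bp of the summit. CGATA had the shortest median distance to the summit of the motifs sought, 63 bp over 281 promoters. Where a promoter held several matches the nearest was taken, which favours a short and frequent motif such as CGATA. No background distance was computed.

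**Figure D4:**
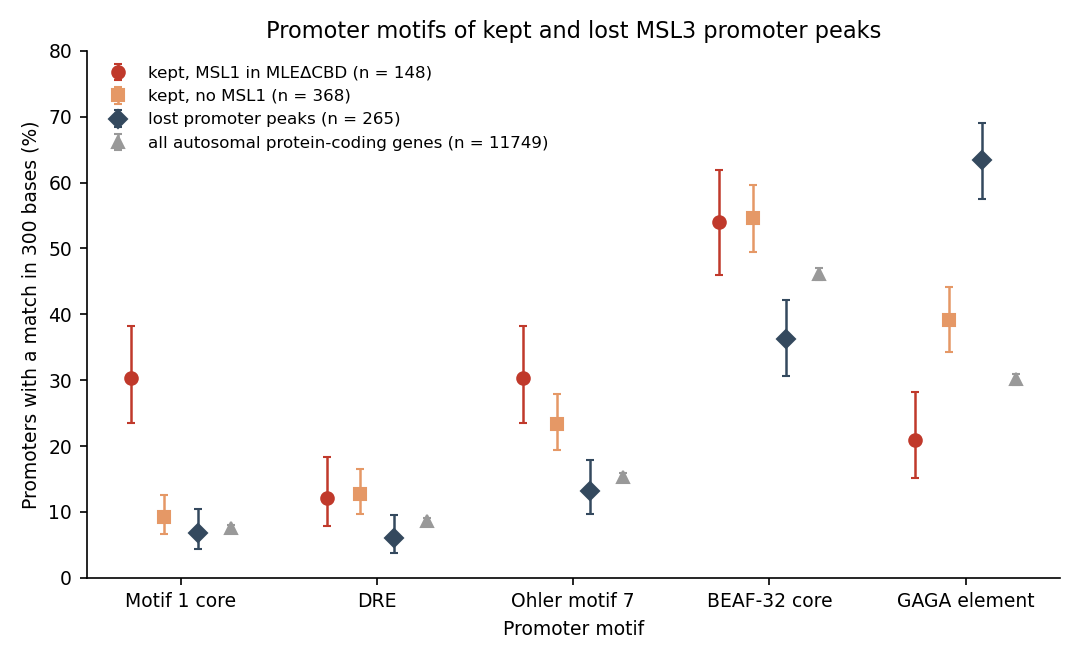
Percentage of protein-coding promoters with a motif match in 300 bases, with 95% Wilson intervals, for kept regions with (red, 148) and without (orange, 368) an MSL1 peak in MLEΔCBD males, lost promoter peaks (dark, 265) and all autosomal protein-coding genes (grey, 11749). The Motif 1 core stands at 30.4% in the red group and at 6.79 to 9.24% in the others, and the GAGA element rises from 20.9% in the red group to 63.4% in the lost peaks.

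The sequence also followed the change in rank among kept regions. The 516 protein-coding regions were put in order by their change in rank among the 1040 kept autosomal peaks and cut into 3 groups of 172. GAGAG was in 41 of 172 promoters of the group that rose (23.8%, 18.1 to 30.7%), 41 of 172 in the middle group and 93 of 172 in the group that fell (54.1%, 46.6 to 61.3%). GAGAGAGA was in 1, 2 and 15. DRE was in 24, 31 and 10 (14.0%, 18.02% and 5.81%), Motif 1 in 30, 34 and 15 (17.4%, 19.8% and 8.72%), and Ohler motif 7 in 60, 45 and 26. MSL1 was called in MLEΔCBD males at 63, 69 and 16 (36.6%, 40.1% and 9.30%). The shares of GAGAG and Motif 1 in the group that fell thus lay between those of the other kept promoters and those of the lost ones. For Motif 1 its interval (5.36 to 13.9%) included the lost share of 6.79%. The DRE share of the group that fell was not between, but just below the 6.04% of lost promoters. The median GC content of the group that fell was 41.7% against 38.0% in the group that rose. The order itself uses the MSL3 values of both lines, from which the regions were also chosen.

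Cytosolic ribosomal protein genes and tRNA genes had a start at a kept region in larger shares than all autosomal genes, with intervals that did not overlap, while the intervals of several other lists of basic cell functions included the share over all genes. Over all 15351 autosomal genes, 820 had a start at a kept region (5.34%, 5.00 to 5.71%), and 2.48% had one at a lost promoter peak only. The tRNA genes were also at lost promoter peaks in a larger share than all genes, as given below. Of 72 autosomal cytosolic ribosomal protein genes 18 had one (25.0%, 16.4 to 36.1%), 10 of them with MSL1 in MLEΔCBD males, and 2 more had a lost peak. RpL30 had 8.18 in MLEwt and 14.2 in MLEΔCBD males (rank 366 and 57), with MSL1 in MLEΔCBD males only. RpL23 had 4.28 and 9.15, and RpS3, which had no MSL1 peak, 3.69 and 3.90. Of all 18, the fold enrichment was higher in MLEΔCBD males at 15, with RpS20 (3.00 and 2.62), RpL31 (2.96 and 2.43) and RpL36A (2.18 and 1.99) lower, against 306 of all 591 kept regions (51.8%). Counts of genes and of regions differ in kind, since a region can hold several genes. These 3 lower genes were named after their values were seen.

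Of 72 genes for subunits of oxidative phosphorylation 8 were reached (11.1%, 5.74 to 20.4%), 5 with MSL1. ATPsynC, a subunit of the ATP synthase rotor, had 11.7 and 13.3 (rank 214 and 72) and UQCR-Q, of complex III, 10.2 and 17.9 (rank 257 and 35). Of 37 translation initiation factor genes 6 were reached (16.2%, 7.65 to 31.1%), of 28 proteasome genes 4, of 62 mitochondrial ribosomal protein genes 4, of 31 vacuolar ATPase genes 3, of 27 RNA polymerase subunit genes 3, of 27 Sm and U snRNP protein genes 3, and of 14 TFIID genes 2, Taf1 and Taf7, both with MSL1 in MLEΔCBD males. The intervals of these smaller lists, other than the initiation factors, oxidative phosphorylation and the proteasome, reach the share over all genes.

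Not every housekeeping family was reached. None of 30 aminoacyl-tRNA synthetase genes and none of 17 nuclear pore genes had a start at a kept region, which allows shares of up to 10.0% and 17.6%. Likewise at 0 were the 160 genes of olfactory, gustatory and ionotropic receptors (up to 1.88%), 105 cuticle protein genes (up to 2.86%), 71 cytochrome P450 genes (up to 4.23%) and 47 seminal fluid protein genes (up to 6.38%), and also the 27 genes of Jonah proteases and trypsins, the 20 genes of antimicrobial peptides and the 14 genes of testis-specific proteasome subunits. None of these genes had a lost promoter peak at a start either. Of 26 Hox and segmentation genes, abd-A (5.12 and 2.37) and bcd (3.98 and 8.36) were at kept regions.

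**Figure D5:**
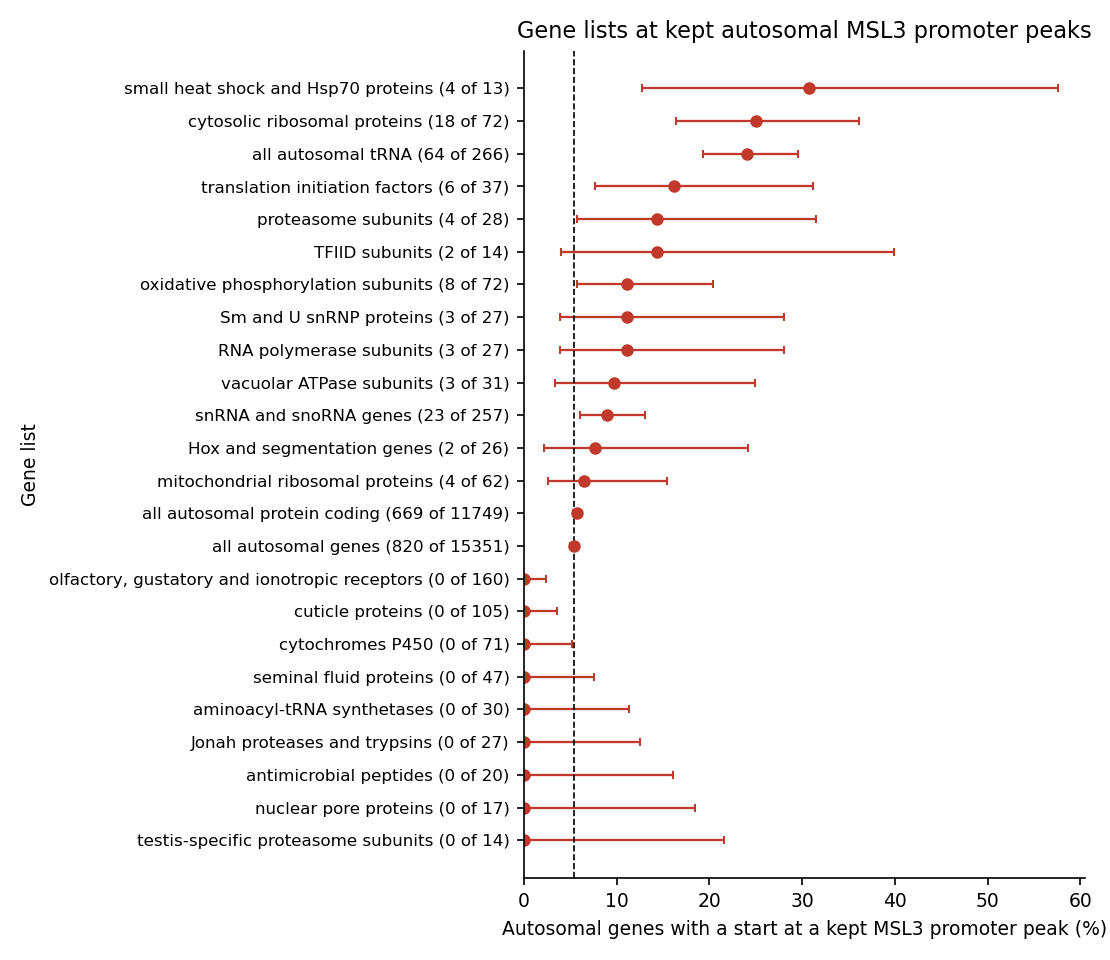
Percentage of autosomal genes of each list with a transcription start at a kept region, with 95% Wilson intervals and counts in the labels; the dashed line marks the 5.34% of all 15351 autosomal genes. Heat shock, cytosolic ribosomal protein and tRNA genes stand at 24.1 to 30.8%, and the receptor, cuticle and cytochrome P450 lists stand at 0.

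Heat shock genes were also at kept regions. Of 13 genes of small heat shock and Hsp70 proteins, which are chaperones, 4 were at kept regions (30.8%, 12.7 to 57.6%) and none had MSL1 in MLEΔCBD males. Hsp22, Hsp26 and Hsp27 lie close together on 3L, in peaks between 9373954 and 9385064, so the interval counts neighbouring genes as separate. Their summits lay 437, 366 and 453 bp downstream of the start, in peaks of 1433, 1609 and 1088 bp. They thus differed from the narrow upstream peaks typical of the regions. Hsp26 had 6.28 in MLEwt and 2.81 in MLEΔCBD males (rank 529 and 1127), Hsp22 4.28 and 2.46 (rank 947 and 1426), and Hsp27 4.05 and 2.21 (rank 1019 and 1780). Hsp68, whose start lay in the 2842 bp peak called by CG6000, had 5.00 and 2.18 (rank 758 and 1836). That peak was the only kept region with MSL1 in MLEwt but not in MLEΔCBD males. All 4 genes had a lower fold enrichment and a lower place in the MLEΔCBD list.

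Genes of tRNAs formed the largest of the non-coding groups counted. Of 266 autosomal tRNA genes 64 had a start at a kept region (24.1%, 19.3 to 29.5%). At a lost promoter peak were 41 more (15.4%), against 2.48% of all autosomal genes, so the larger share was not particular to kept regions. Of promoter peaks nearest a tRNA gene 38 of 67 were kept (56.7%, 44.8 to 67.9%), against 66.1% of those nearest a protein-coding gene. The genes at kept regions served every kind of tRNA in the annotation other than cysteine, histidine and tyrosine, with 6 genes each for glutamate, proline and serine, and 0 of 7 for cysteine, 0 of 5 for histidine and 0 of 8 for tyrosine. The exact letters GGTTCGA were in 31 of 64 tRNA genes at kept regions (48.4%), 20 of 41 at lost peaks (48.8%) and 79 of 161 with no MSL3 peak (49.1%), so this sequence did not separate them. Of the 64 genes 53 had a copy of identical sequence elsewhere among the tRNA genes, as had 134 of the 161 without a peak. How reads that match several copies were placed is not given in the sources used here, so the level at a single tRNA gene is uncertain.

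At the 38 regions nearest a tRNA gene the fold enrichment was lower in MLEΔCBD males at all but 1. In the full lists 20 of 38 had a better rank in MLEΔCBD males, with a median change of 4.5 places (-123 to 98), and among the kept autosomal peaks alone 1 of 38 did, as given above. Their median fold enrichment was 4.22 (3.87 to 5.45) in MLEwt and 2.97 (2.75 to 3.81) in MLEΔCBD males, against 3.64 and 3.80 at regions nearest a protein-coding gene. Their summits lay in a narrow band, at a median of -45 bp from the annotated start (-51 to -37), and the median width was 487 bp. The highest was tRNA:Thr-AGT-1-4, with 12.2 in MLEwt and 11.6 in MLEΔCBD males (−log10 p 552 and 583 in the pair of sets, then 550 and 571). Next were tRNA:Pro-CGG-2-3 with 11.4 and 7.59, tRNA:Asp-GTC-1-4 with 9.31 and 5.03, and tRNA:Trp-CCA-2-6 with 8.81 and 5.16. MSL1 in MLEΔCBD males was at 7 of 38 (18.4%, 9.22 to 33.4%), and in MLEwt males at 3 of 38. Of the tRNA genes printed above, tRNA:Ser-GCT-2-5 had MSL1 in both lines, at 2.42 and 5.80.

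Of other small RNA genes, 20 of 238 autosomal snoRNA genes (8.40%, 5.51 to 12.6%) and 4 of 30 snRNA genes (13.3%, 5.31 to 29.7%) were reached. Some snoRNA genes shared a peak with the start of a ribosomal protein gene, as at RpL13A. snRNA:U6:96Ac, also a gene of RNA polymerase III, had 6.32 in MLEwt and 6.73 in MLEΔCBD males. The highest snoRNA gene was snoRNA:Psi18S-176, with 6.90 and 4.47.

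The genes of the complex itself were not among the regions. No autosomal MSL3 peak of MLEwt males lay within 200 bp of a start of msl-1, msl-2, msl-3, mle or Clamp, or of the NSL complex genes nsl1, MBD-R2, dgt1, Rcd1 and Rcd5. Ubi-p63E, whose promoter drives the transgene and is therefore present in additional copies in both lines, was at a kept region with 2.89 in MLEwt and 2.81 in MLEΔCBD males.

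The widest regions were called by scaRNA:MeU2-G25 on 3R (11419 bp in MLEwt and 10226 bp in MLEΔCBD males, fold enrichment 2.90 and 2.23), Uba1 on 2R (5258 and 1974 bp) and CG14966 on 3L (4478 and 3343 bp). Their summits lay 4865, 543 and 1552 bp past the start. Close to the limit of 200 bp lay jdp (200 bp), mir-11 (199 bp) and CG8927 (190 bp), with fold enrichments of 2.37, 2.15 and 2.71 in MLEwt males. Just outside it lay sro (202 bp), CG32196 (206 bp) and snoRNA:Or-CD4 (211 bp), with 2.33, 19.5 and 4.23. The smallest overlaps between lines were 218 bp at tRNA:Val-AAC-2-2 and 220 bp at tRNA:Thr-TGT-2-1. The lost promoter peaks closest to a MLEΔCBD peak, nuf, Uhg7 and ush, were 204, 209 and 224 bp away from it.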

How the data were processed

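Chromatin of whole adult males was immunoprecipitated for MSL1, MSL2 and MSL3, with 2 libraries per protein and line and 1 preimmune library (13 in all). Reads had been trimmed (cutadapt) and aligned to the dm6 genome (Bowtie2) by the authors, who made peaks with MACS2 and filtered them by IDR, the irreproducible discovery rate. Each deposited list stands for a protein in a line, and 0 columns of single libraries were left unmapped. The fold enrichment of a peak is a ratio from MACS2, as deposited. The −log10 p and q values, the −log10 IDR values and the −log10 p of the pair of peak sets compared are as the authors deposited them. The deposited scores and the IDR ranks were not used. Start, end and −log10 p of a deposited peak equal those of the first set of the pair, and the set behind the fold enrichment is not known. Read counts were not used here, so depth is unknown, and a list's length depends on it.

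Peaks were compared with the starts of 35694 transcripts of 18358 genes (Ensembl release 115, BDGP6.54, the dm6 assembly), and sequences were read from the RefSeq genome of the same assembly. A region was called by the gene whose start is nearest its summit. Where it overlapped several MLEΔCBD peaks, the strongest gave the fold enrichment and the sum gave the width. Lists were called shared at 1 bp. An upper limit for a count of 0 is 3 counts of the total. The regions named were the 3 strongest per large arm and those on chromosome 4, the 5 that rose and 5 that fell most in rank, the 3 widest, the 10 with MSL1 in both lines and the highest MSL1 fold enrichment in MLEΔCBD males, those at the limits of the rule, up to 4 genes per gene list, and the MSL and NSL genes. The regions, gene lists, motifs and this rule were chosen with earlier results of these data known. Groups by change in rank, the readings within GC content, the tRNA counts and the printed examples came later, with the data in view. The overlap, start, motif and interval functions were tested on simulated peaks. The tools were matplotlib 3.10.9, scipy 1.17.1, pandas 2.3.3 and numpy 2.4.6 under Python 3.11.15.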

Additional observations from a re-analysis of the deposited data

How the results depend on the processing

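Of 84 alternative values of 8 results, 76 stayed within 1.5 times the count or within the 95% interval given for the share or median. The number of regions ranged from 446 (summit itself within 200 bp of a start) to 663 (peak edge within 500 bp). The kept share of 64.1% was 60.1% with summits within 250 bp of each other, 60.5% with the edge within 500 bp, 74.4% with equally long MSL3 lists and 68.9% at a global IDR of 0.001 or less. With that IDR, a threshold chosen after the data were examined, the share with MSL1 was 17.8% in MLEΔCBD and 1.91% in MLEwt males, since fewer MSL1 peaks pass it. The median width of 617 bp was 568 bp for summits within 200 bp of a start. The DRE share over all 591 regions was 11.3%, and 6.77% in the shorter window of 100 bases either side of the summit. Without regions near tRNA genes, also added later, MSL1 was at 27.2% of 551 in MLEΔCBD males. The other alternatives were overlaps of 50%, protein-coding transcripts only, −log10 q of 3 or more, global IDR of 0.01 or less, and chromosome 4 left out. All lists of MSL1 and MSL3 already met the IDR of 0.01. No paired analysis was possible because each protein and line has 1 list whose columns carry no replicate, and no result comes from a test. For the same reason no replicate could be left out.

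Limits: fold enrichment is not scaled between lines, a weak peak can miss a list through depth, motif matches say nothing of binding, and transgene copy number differs between the lines.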
